A study of Homo sapiens with 20 samples.

Results

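Binding of RNA polymerase II (POL2) and of the transcription factor c-Myc (MYC) was examined at 8 tumour suppressor and p53 axis genes in PC-3 cells, out of 19970 protein-coding genes of chromosomes 1 to 22 and X. The genes were chosen by name: CDKN1A, CDKN1B, CDKN2A, CDKN2B, RB1, MDM2, NF2 and NF1. PC-3 is an established human prostate cancer line that is known to lack functional p53. Wild-type (WT) cells were compared with cells of the same line in which the kinase gene SLK was knocked out (SLK-KO, called PSD10 in the labels). Whether PSD10 is a single clone is not given in the sources used here. Each genotype had 3 POL2 and 3 MYC chromatin immunoprecipitation libraries, described as biological replicates, and both genotypes were grown and fixed in the same way. The comparison asks whether loss of SLK goes with a change in where the polymerase and MYC are called.

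Transcribing and paused polymerase gathers just downstream of active transcription start sites (TSSs), so a POL2 summit there marks a promoter at which polymerase is engaged. The CDK inhibitors among these genes restrain the cell cycle by holding back the cyclin-dependent kinases that inactivate RB1, and CDKN2A also makes p14ARF, which binds MDM2, the ubiquitin ligase that degrades p53. MYC is known to repress CDKN1A and CDKN2B through partner proteins bound at their promoters, rather than through its own E-box sequence.

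POL2 was found at the start sites of 7 of the 8 genes in at least 1 library, and MYC at the start sites of 0 of 8 in each of the 6 MYC libraries. RB1, CDKN2B and NF2 carried a POL2 summit in all 6 POL2 libraries, CDKN1A, CDKN1B and MDM2 in 5, and CDKN2A in 4. NF1 had none. A start-site summit was one that lay 1 kb or less from any annotated TSS of the gene. Among all protein-coding genes, 53.9% had such a POL2 summit in 1 or more libraries, 18.1% in all 6, and 9.69% had such a MYC summit in 1 or more. No start site of the 8 genes was held by POL2 in every library of one genotype and none of the other. The one difference of that kind lay inside CDKN1A, where a site in the first intron was called in 3 of 3 SLK-KO and 0 of 3 WT libraries. Among coding genes with summits inside them and over 1 kb from their starts, 8.53% had more in every SLK-KO than in any WT library. When each list was cut to its 5047 best summits, 1 of the 3 CDKN1A summits remained.

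The sequences below are those that the contrasts between start sites turn on, read 5′ to 3′ on the strand of the gene from GRCh38, just upstream of each start site and outside exons of the named gene. The p14ARF stretch overlaps an exon of the antisense gene CDKN2B-AS1. In the first 4 the capitals mark the GC box GGGCGG on either strand, the element bound by Sp1-family factors. CDKN2B and CDKN1A had the best median POL2 ranks of the set, and the paired CDKN2A promoters are shown because POL2 was called at one and not at the other.
CDKN1A promoter, chr6:36678560-36678709, plus strand: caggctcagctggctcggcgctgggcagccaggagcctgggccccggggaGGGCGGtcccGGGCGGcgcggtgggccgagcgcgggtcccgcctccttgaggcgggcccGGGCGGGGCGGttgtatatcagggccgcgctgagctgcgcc
CDKN2B promoter, chr9:22009306-22009455, minus strand: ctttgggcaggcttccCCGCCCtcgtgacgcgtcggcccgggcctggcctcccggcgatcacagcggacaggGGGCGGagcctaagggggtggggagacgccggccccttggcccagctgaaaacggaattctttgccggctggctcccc
CDKN2A p14ARF promoter, chr9:21994412-21994561, minus strand: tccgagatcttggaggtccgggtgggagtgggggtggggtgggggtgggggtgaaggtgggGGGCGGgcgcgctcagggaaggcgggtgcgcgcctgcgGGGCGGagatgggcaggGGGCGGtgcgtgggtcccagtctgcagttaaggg
CDKN2A p16INK4a promoter, chr9:21974867-21975016, minus strand: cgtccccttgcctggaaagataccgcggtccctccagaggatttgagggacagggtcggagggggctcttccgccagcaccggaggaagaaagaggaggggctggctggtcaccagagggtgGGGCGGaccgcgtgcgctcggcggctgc
None of these holds the MYC E-box CACGTG. In the inner promoter of MDM2, within its first intron, the capitals mark a match to the p53 binding site. The site was a pair of half-sites with up to 13 bp between them. Each half-site had at most 1 mismatch, and none at its core C and G.
MDM2 inner promoter, chr12:68808852-68809001, plus strand: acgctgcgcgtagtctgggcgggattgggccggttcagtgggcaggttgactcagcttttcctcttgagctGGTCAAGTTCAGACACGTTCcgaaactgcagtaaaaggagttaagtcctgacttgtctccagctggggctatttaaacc
The last sequence surrounds the only MYC summit called inside any of the 8 genes, in the first intron of CDKN1A in SLK-KO replicate 1, and it also has no CACGTG.
CDKN1A intronic MYC summit, chr6:36680328-36680428, plus strand: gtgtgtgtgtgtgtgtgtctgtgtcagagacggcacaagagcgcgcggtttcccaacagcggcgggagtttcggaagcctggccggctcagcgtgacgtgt

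Over 300 bp windows, from 250 bp before the canonical start to 50 bp from it, CACGTG was absent at all 8 genes, against a share of 7.23% with the motif among 34943 RefSeq promoters of the same length. Within 1 kb of the canonical start, MDM2 alone had the motif, once. The p53 site was searched for only in 300 bp windows, at the canonical, p14ARF, MDM2 inner and CDKN1B upstream starts. It was matched only at the MDM2 inner start, and 1.83% of RefSeq promoters had such a match. Sequence outside these windows, further upstream of CDKN1A included, was not searched for it. GGGCGG occurred 5 times at the p14ARF start, 4 times at CDKN1A, 2 times each at RB1, CDKN2B and the p16INK4a start, 1 time each at CDKN1B, MDM2 and NF2, and not at NF1. The motif was found in 44.9% of RefSeq promoters. CCAAT, the box bound by NF-Y, was present at CDKN1B (3 times), MDM2 and NF2 (2 times each) and in 34.6% of RefSeq promoters, while TATAAA was in 0 of the windows and 11.6% of RefSeq promoters. GC content was 62.3% at CDKN1B and 74.7% at MDM2, with the other canonical starts between these, all above the RefSeq median of 58.7%. NF1, the gene without POL2, stood within that range at 67.0%. Motif matches are letters in a window and do not show binding.

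The lists differed in length. The WT POL2 lists held 17126, 5047 and 9925 summits in replicates 1 to 3 and the SLK-KO lists 19017, 15436 and 16298. The corresponding MYC numbers were 365, 201 and 267 in WT and 1218, 1420 and 988 in SLK-KO. The lists carry no read counts, so depth is unknown. WT replicate 2, the shortest POL2 list, reached the start sites of 19.1% of coding genes, against 35.4% to 49.1% in the other 5. SLK itself had a start-site POL2 summit in all 3 SLK-KO libraries and 2 of the 3 WT ones and no MYC summit, and a promoter summit does not test for a disrupted coding sequence. Of the marker genes, POL2 stood at the epithelial KRT8, KRT18, KRT19 and CLDN4 in 6 of 6 libraries, CDH1 was called in 1 WT library only and CLDN7 in none. Prostate luminal KLK3, KLK2 and FOLH1 had none, mesenchymal VIM, CDH2 and FN1 had POL2 in 6 of 6, and haematopoietic PTPRC and CD3E had none.

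Promoters were compared by the rank of the best start-site POL2 summit of the gene among all summits of the same library, divided by the length of the list. A percentile of 0 is the best. The score behind the rank is the authors' own value, −log10 of the peak caller's q, and was compared only within a list.

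**Figure D1:**
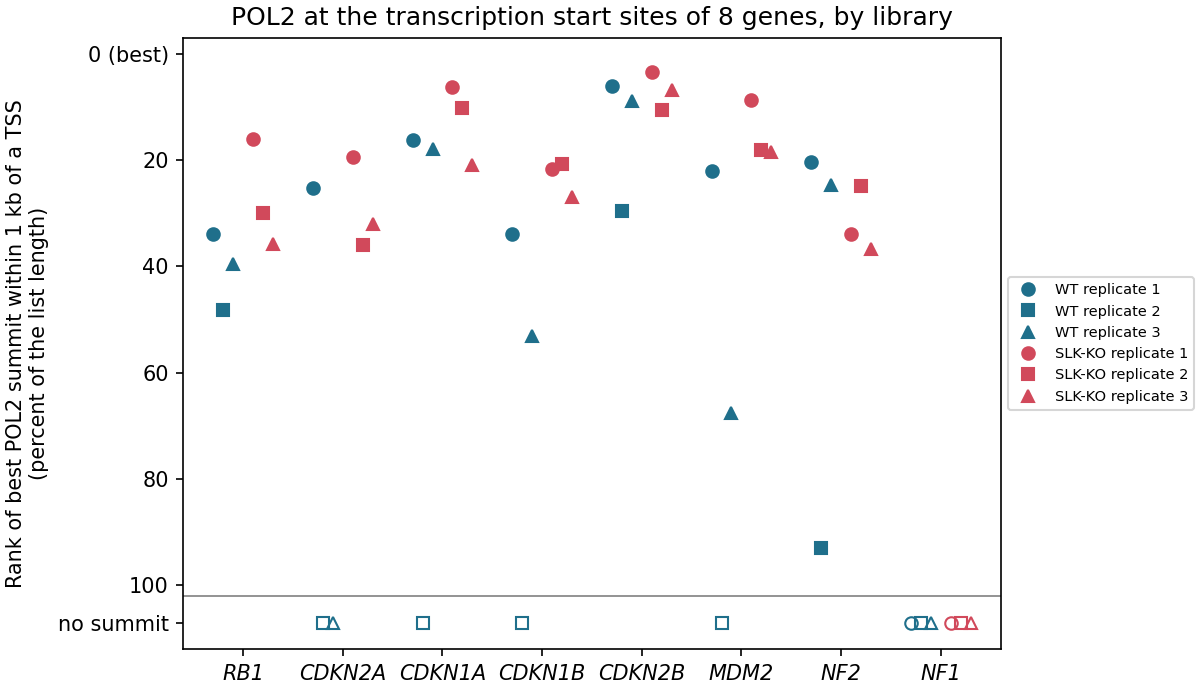
POL2 rank percentile (y axis, percent of the list length, best at the top) of the best summit within 1 kb of a TSS, for each gene (x axis), with 1 symbol per library. Open symbols below the line are libraries without a summit. CDKN2B stays between 3.35 and 29.6, the open symbols outside NF1 all belong to WT replicates 2 and 3, and NF1 has 6 open symbols.

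Among the CDK inhibitors, CDKN2B (ENSG00000147883.12, GRCh38 chromosome 9, 22002903 to 22009305, minus strand), which encodes p15INK4b, had the best median POL2 percentile of the set (7.87), and in SLK-KO replicate 2 CDKN1A was ahead of it. Its summit was ranked 1053, 1496 and 886 in WT replicates 1 to 3 and 637, 1634 and 1111 in SLK-KO replicates 1 to 3. All 6 summits lay between 42 and 98 bp downstream of the canonical start, in the 5′ untranslated exon. The percentiles were 6.15, 29.6 and 8.93 in WT and 3.35, 10.6 and 6.82 in SLK-KO, so that WT replicate 2 alone stood apart. The means of 14.9 ± 12.8 and 6.92 ± 3.62 (SD, n = 3 each) differed by -7.99 points, less than the WT spread (exact two-sided permutation p = 0.5, adjusted 0.728 over 3615 genes). Without WT replicate 2 the difference was -0.62.

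CDKN1A (ENSG00000124762.14, chromosome 6, 36676460 to 36687337, plus strand) encodes p21, the CDK inhibitor that p53 induces. Its summit sat 19 to 49 bp downstream of the canonical start in the 5 libraries that had one, at rank 2766 in WT replicate 1, 1787 in WT replicate 3, and 1196, 1562 and 3408 in the SLK-KO libraries. WT replicate 2 had none. The percentiles, 16.2 and 18.01 in WT and 6.29, 10.1 and 20.9 in SLK-KO, overlapped between the genotypes. The upstream group of CDKN1A starts (36676460 to 36676528) had no summit in any library. DINOL, a noncoding RNA gene that starts within 1 kb of CDKN1A, has its TSS 193 bp from the median summit of the promoter site, and summits do not separate the strands.

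A second POL2 position lay 1428, 1437 and 1468 bp downstream of the CDKN1A start in SLK-KO replicates 2, 3 and 1, within the first intron (36680142 to 36680182). Its ranks were 7190, 5946 and 4401 in SLK-KO replicates 1 to 3, behind the promoter summit in each of the 3 libraries. Per 10000 summits of the list these single summits were 0.53, 0.65 and 0.61, against 0 in each WT library. The count of body summits, which lie inside a gene and over 1 kb from each of its starts, was thus 1 for POL2 in every SLK-KO library and 0 in every WT library (exact two-sided permutation p = 0.1, the smallest that 3 against 3 allows, adjusted 1 over 4279 genes). Among those 4279 coding genes 8.53% had more body summits in every SLK-KO than in any WT library, and CDKN1A was the 1 of the 4 genes of the set with body summits that did. When each list was cut to its 5047 best summits, 1 of the 3 SLK-KO summits remained and the difference was 0.33 (exact permutation p = 1). In SLK-KO replicate 1 a MYC summit was called 1664 bp downstream of the start (position 36680378), at rank 735 of 1218 with a score of 5.12. The other 5 MYC lists had no summit in the gene.

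**Figure D2:**
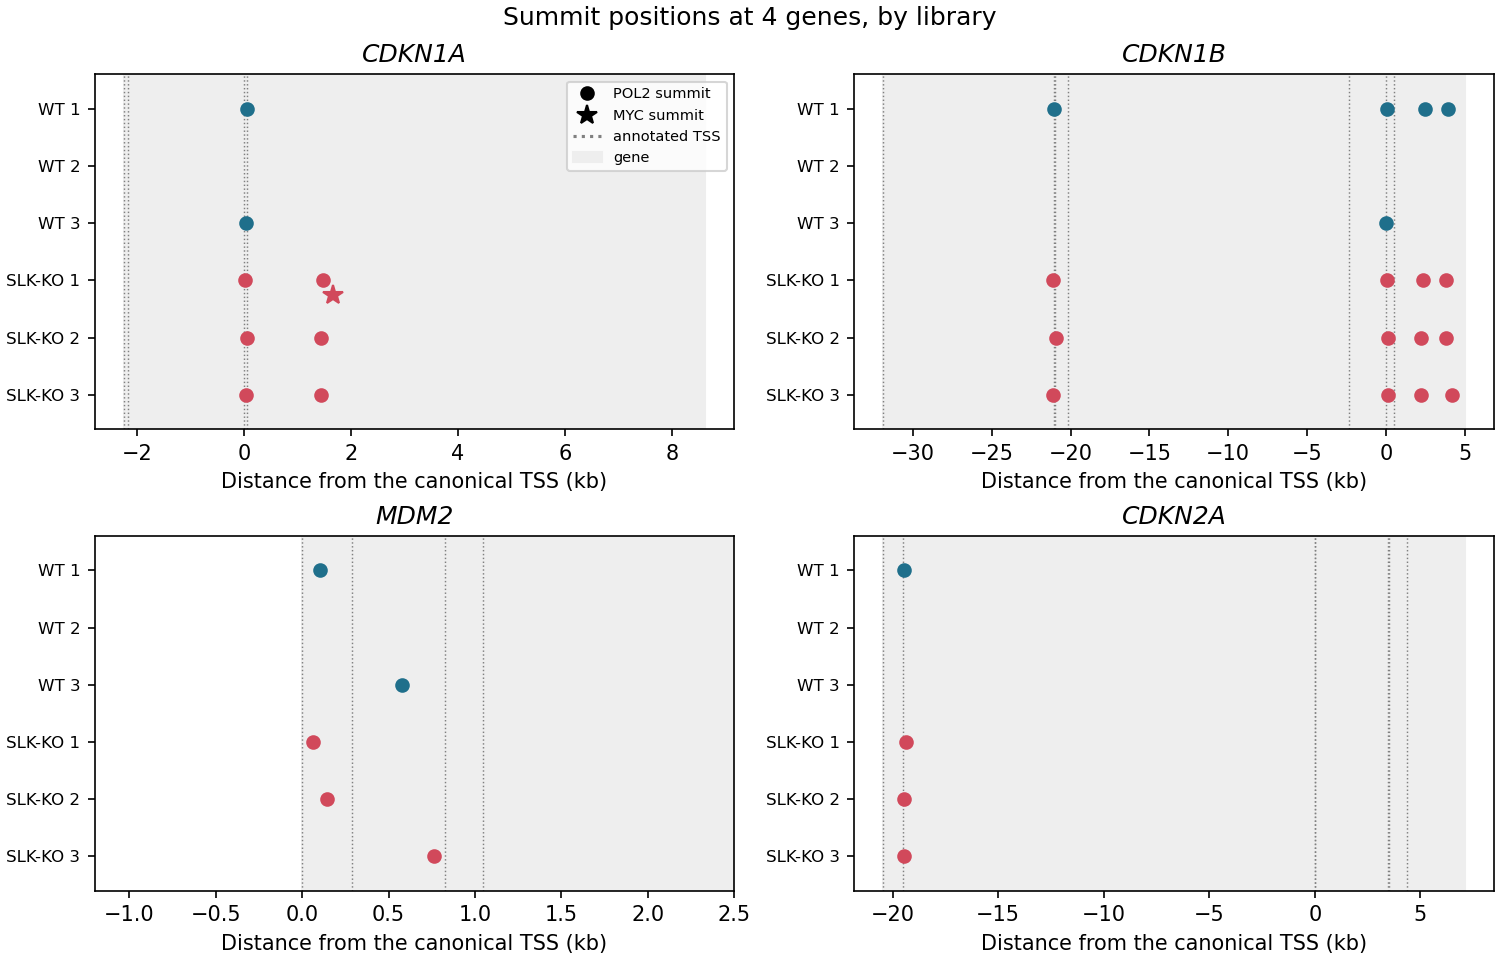
Position of each POL2 (circle) and MYC (star) summit relative to the canonical TSS (x axis, kb) in each library (rows), for CDKN1A, CDKN1B, MDM2 and CDKN2A. The gene is shaded, annotated start sites are dotted, and the MDM2 axis is limited to the region of its first starts. The CDKN1A intronic circles occur in the 3 SLK-KO rows only, and the CDKN2A circles are at -19485 to -19375 bp from the p16INK4a start at 0.

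CDKN1B (ENSG00000111276.12, chromosome 12, 12685498 to 12722369, plus strand) encodes p27, which inhibits cyclin E and cyclin A kinases. Its main summit lay 17 to 151 bp downstream of the canonical start, at rank 5820 and 5263 in WT replicates 1 and 3 and 4108, 3209 and 4401 in SLK-KO replicates 1 to 3. The percentiles of 34.0 and 53.03 in WT were worse than the 21.6, 20.8 and 27.0 of SLK-KO. With WT replicate 2 empty, CDKN1B did not enter the rank test. Of the 3615 coding genes that did, 24.2% ranked better in every SLK-KO than in any WT library. Because both WT ranks fell outside the best 5047 summits, lists of equal length gave CDKN1B in 3 SLK-KO and 0 WT libraries, a split that the full lists did not show. A weaker summit near the upstream start, at a median of -21059 bp from the canonical one and 102 bp from the TSS of GPR19, was found in WT replicate 1 and all 3 SLK-KO libraries. Summits were also called inside CDKN1B, at medians of 2311 and 3893 bp past the start in the same 4 libraries. These ranked low, with median percentiles of 73.5 and 72.3. The body summits of CDKN1B per library were 2 ± 0 in SLK-KO and 0.667 ± 1.15 in WT (SD, n = 3; exact permutation p = 0.4, adjusted 1).

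CDKN2A (ENSG00000147889.18, chromosome 9, 21967752 to 21995301, minus strand) produces p16INK4a and p14ARF from separate first exons. All its POL2 summits were at the p14ARF start, between 50 and 160 bp downstream of it (21994232 to 21994342). They were ranked 4336 in WT replicate 1 and 3710, 5554 and 5230 in SLK-KO replicates 1 to 3, or percentiles of 25.3 and of 19.5, 36.0 and 32.1. WT replicates 2 and 3 had none (1 of 3 against 3 of 3 libraries, exact permutation p = 0.4, adjusted 1). Without WT replicate 1 the split was 0 of 2 against 3 of 3. With the 5047 best summits of each list CDKN2A was left in WT replicate 1 and SLK-KO replicate 1 only, a difference of 0. At the p16INK4a start, the canonical start of the gene at 21974857, 0 of 6 libraries had a summit, and counting the canonical start alone left CDKN2A without POL2. The antisense noncoding gene CDKN2B-AS1 starts 184 bp from the median p14ARF summit, and the strands cannot be told apart. The CDKN2B promoter, whose summit was 13906 bp beyond the end of CDKN2A, was thus called in 2 WT libraries in which p14ARF was not.

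RB1 (ENSG00000139687.16, chromosome 13, 48303744 to 48599436, plus strand) encodes the pocket protein that these inhibitors keep active. Its promoter summit was ranked 5820, 2432 and 3924 in WT replicates 1 to 3 and 3035, 4618 and 5821 in SLK-KO replicates 1 to 3. The summits lay at -256 to -101 bp from the canonical start, on the side of the divergent noncoding gene RB1-DT, whose TSS was 60 bp from the median summit. In percentiles WT stood at 34.0, 48.2 and 39.5 and SLK-KO at 15.96, 29.9 and 35.7. The ranges overlapped, and the means of 40.6 ± 7.16 and 27.2 ± 10.2 (SD, n = 3 each) differed by -13.4 points (exact permutation p = 0.2, adjusted 0.528 over 3615 genes). Over left-out libraries the difference ran from -17.6 (SLK-KO replicate 3 left out) to -7.75 (SLK-KO replicate 1 left out).

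RB1 also carried 2 recurrent POL2 positions far inside the gene, each in 2 WT and 3 SLK-KO libraries and both absent from WT replicate 2. The one 109331 bp from the start lay 31 bp from the TSS of LPAR6, a receptor gene nested in an intron of RB1, and ranked behind the RB1 promoter in each of the 5 libraries. The one 229152 bp from the start lay 39 bp from the TSS of the noncoding gene ENSG00000289900. In WT replicate 3 the nearest TSS was instead that of the protein-coding gene RCBTB2, 97 bp away. All summits of this site lay between 48532864 and 48532983, near the starts of both genes. It was ranked 2979 and 2448 in WT replicates 1 and 3 and 2592, 4017 and 2904 in SLK-KO replicates 1 to 3. In all 5 libraries this intronic position was ranked ahead of the RB1 promoter.

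**Figure D3:**
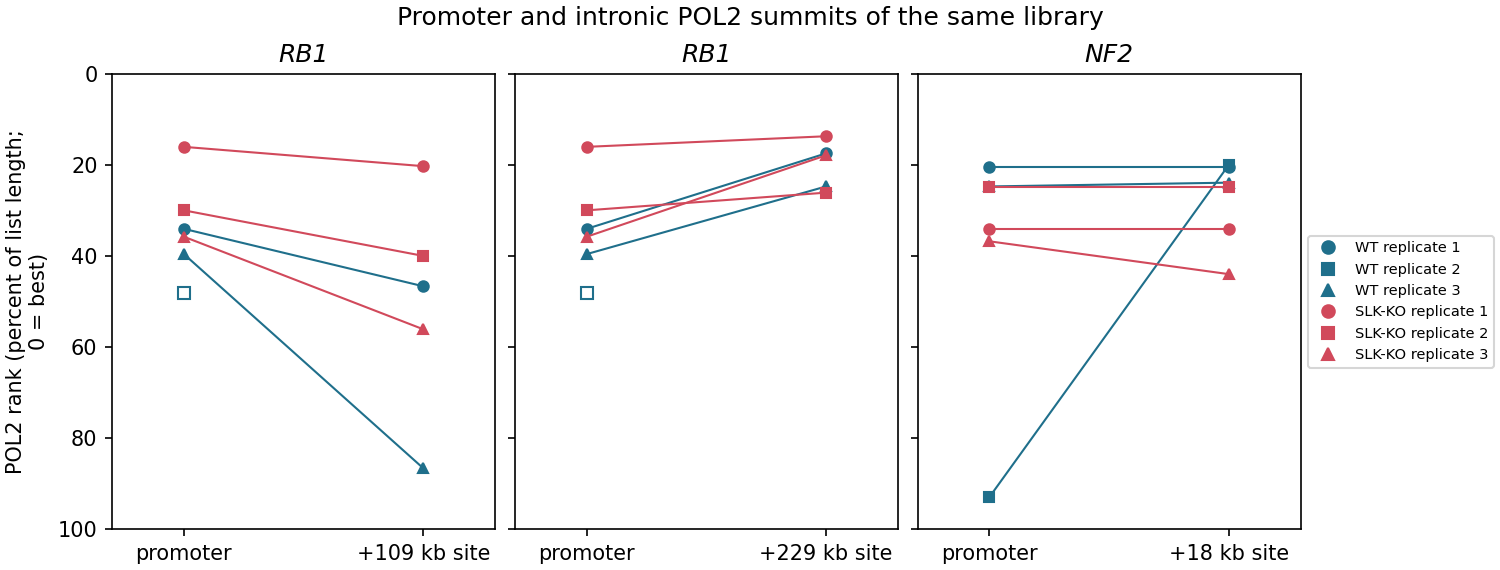
POL2 rank percentile (y axis, best at the top) of the promoter summit and of an intronic summit of the same gene, joined by a line for each library. Open squares are WT replicate 2, which has no summit at either RB1 intronic site. Both RB1 intronic sites lie next to start sites of other genes. Lines fall at the first RB1 site (109331 bp), rise at the second (229152 bp), and are flat in 3 libraries at the NF2 site (18299 bp).

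MDM2 (ENSG00000135679.27, chromosome 12, 68808177 to 68845544, plus strand) encodes the ligase that limits p53, and its inner promoter is the part of the gene that p53 is known to activate. POL2 was ranked 3790 in WT replicate 1, 6712 in WT replicate 3, and 1661, 2789 and 3015 in SLK-KO replicates 1 to 3, with no summit in WT replicate 2. The best percentile of each library was 22.1 and 67.6 in WT and 8.73, 18.1 and 18.5 in SLK-KO. The 3 SLK-KO values were the better ones, but with a WT library lacking a summit the gene did not enter the rank test. Of the 3615 coding genes in that test, 24.2% ranked better in every SLK-KO than in any WT library. The summit was at the outer start in WT replicate 1 and SLK-KO replicates 1 and 2, at 101, 65 and 146 bp. In WT replicate 3 and SLK-KO replicate 3 it lay at 579 and 765 bp, in the first intron next to the inner start whose p53 site is printed above. SLK-KO replicate 3 placed its summit at 68808942, inside the printed sequence. Each genotype thus had libraries of both kinds, and no library had a summit at both starts.

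NF2 (ENSG00000186575.19, chromosome 22, 29603556 to 29698598, plus strand) encodes merlin, a membrane-cytoskeleton protein that activates the Hippo kinases. Its promoter summit was ranked 3496, 4691 and 2448 in WT replicates 1 to 3 and 6457, 3829 and 5985 in SLK-KO replicates 1 to 3. The WT percentiles of 20.4, 92.9 and 24.7 enclosed the SLK-KO ones of 34.0, 24.8 and 36.7, since the summit was near the end of the list in WT replicate 2. The means, 46.0 ± 40.7 and 31.8 ± 6.24 (SD, n = 3 each), differed by -14.2 points (exact permutation p = 1, adjusted 1), and by 9.29 in the other direction without WT replicate 2 (exact permutation p = 0.2). An intronic position 18299 bp from the start recurred in all 6 libraries, at ranks 3496, 1006 and 2365 in WT and 6457, 3829 and 7161 in SLK-KO. It tied with the promoter in score in WT replicate 1 and SLK-KO replicates 1 and 2, was ahead in WT replicates 2 and 3 and behind in SLK-KO replicate 3. The nearest start of another gene was 13032 bp from it. Body summits averaged 2 per library in both genotypes (exact permutation p = 1).

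The number of the 8 genes with a POL2 start-site summit was 7, 3 and 6 in WT replicates 1 to 3 and 7, 7 and 7 in SLK-KO, a mean of 5.33 ± 2.08 against 7 ± 0 (SD, n = 3 each). WT replicate 2 lacked CDKN2A, CDKN1A, CDKN1B and MDM2, and the difference in means, 1.67 genes, was 0.5 without that library and 2.5 without WT replicate 1. With the 5047 best summits of each list, 5, 3 and 4 genes were found in WT and 6, 6 and 4 in SLK-KO. Of the 10765 coding genes with POL2, 2.87% were split 3 SLK-KO to 0 WT libraries and 0.0186% the other way, and 0 of the 7 genes here were in either class. Of the 3615 coding genes with POL2 in all 6 libraries, 24.2% ranked better in every SLK-KO than in any WT library and 0.664% the reverse, with 0 of RB1, CDKN2B and NF2 in either class. That direction depends on list length: with equal lengths the counts were 407 and 398 genes, against 875 and 24. No gene had an adjusted p under 0.05, which 3 against 3 libraries cannot give, since the exact p cannot fall under 0.1. Each permutation p-value is the share of genotype relabellings of these libraries with a difference at least as large as that observed, in either direction. PSD10 is the only SLK-KO line here, so the p-values cannot separate the knockout from other differences of that line.

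NF1 (ENSG00000196712.20, chromosome 17, 31094927 to 31382116, plus strand), which encodes the RAS GTPase-activating protein neurofibromin, had no POL2 and no MYC summit at any of its 33 annotated starts or in its body. The absence reached beyond the gene. No POL2 summit of any of the 6 libraries lay between 30906410 and 31549660, a span of 643250 bp that starts 66 bp from the TSS of ADAP2 and contains 7 coding genes, namely RNF135, NF1, OMG, EVI2B, EVI2A, RAB11FIP4 and ENSG00000265118. The span had 0 MYC summits as well. Spans free of POL2 summits and at least as long numbered 942 on the chromosomes examined, of which 83 held as many coding genes. Of all coding genes, 12.1% had no POL2 summit inside them or as near as the 167544 bp that separate NF1 from its nearest one. Copy number and input signal were not examined here, and whether NF1 is altered in PC-3 is not given in the sources used here.

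**Figure D4:**
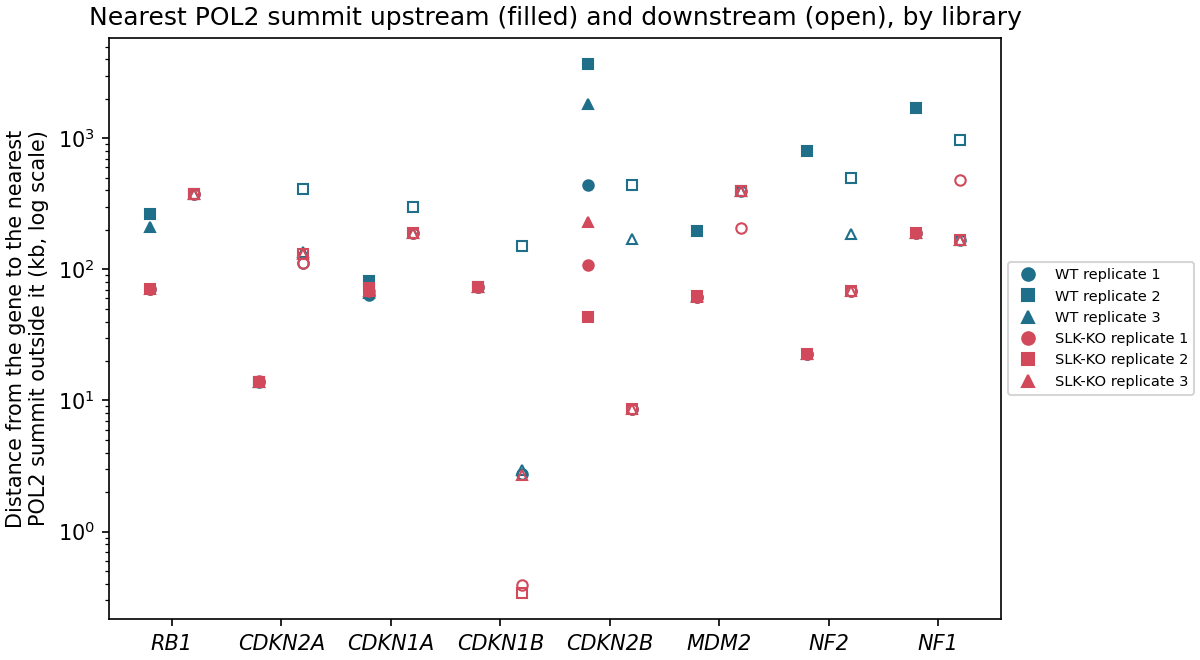
Distance in kb (y axis, log scale) from each gene to the nearest POL2 summit outside it, upstream (filled) and downstream (open), with 1 symbol per library. The symbols of NF1 start at 167544 bp downstream and 188517 bp upstream, while CDKN1B has a downstream summit at 342 bp.

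The other genes had nearer neighbours on at least 1 side. The nearest POL2 summits were those of CDKN2B for CDKN2A and of the p14ARF start for CDKN2B, 13906 and 8561 bp from each gene. NF2 had the NIPSNAP1 promoter 22480 bp upstream and ZMAT5 68244 bp downstream. For MDM2 the SLC35E3 promoter was 61856 bp upstream, and for RB1 that of ITM2B 70433 bp upstream. CDKN1A had its nearest 63220 bp upstream, 9272 bp from the TSS of MIR3925, and the nearest on the other side at PPIL1, 187770 bp downstream. Past the end of CDKN1B, POL2 was called 342 bp on in 2 SLK-KO libraries.

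MYC summits were distant from most of the set. The closest outside a gene was 3117 bp past the end of CDKN1B in 1 SLK-KO library, 431 bp from the TSS of APOLD1. NF2 followed, with a MYC summit at THOC5 49733 bp upstream in 1 SLK-KO library. Around CDKN2A and CDKN2B no MYC summit lay between the RPS6 promoter, 2587688 bp on one side of CDKN2A, and that of UBAP2, 12054072 bp on the other. NF1 had its nearest at RPL23A, 2374741 bp upstream. Of the coding genes with POL2 in all 6 libraries, 29.1% had a MYC summit in at least 1 library, and of RB1, CDKN2B and NF2 0 of 3 did.

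The genes with the most similar pattern over the 12 lists were found by the same presence and absence, then by the smallest mean difference in POL2 percentile. RB1 was nearest to ZNF407 (4.24 points) and RHOC (4.50 points), CDKN2B to ACAP2 (1.13) and MARCHF7 (1.38), and NF2 to SOCS6 (3.86) and MSANTD2 (4.61), out of 2562 coding genes with that presence pattern. CDKN1A was nearest to EEPD1 (2.17) and EGFR (2.58), CDKN1B to RPS6KB2 (2.15) and NPIPB2 (2.35), and MDM2 to SQOR and FOXJ3 (2.26 each), out of 2447. CDKN2A was nearest to COPS4 (2.51) and CES2 (2.60), out of 1201. Such likeness is a description over 12 lists, of which the 6 MYC lists are empty for all these genes.

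The other genes of these pathways were counted in the same way. Of 16 regulators of p53 other than MDM2, 14 had POL2 at a start site in at least 1 library and 7 in all 6, and the best ranked were the ribosomal protein genes RPL5 (median percentile 5.28) and RPL11 (5.90), whose free proteins inhibit MDM2. MYC was called at 4 of the 16. RPL5 had it in 6 of 6 libraries. MDM4, the MDM2 partner that masks p53, had it in 3 SLK-KO and 0 WT libraries at ranks 263 of 1218, 107 of 1420 and 258 of 988. TP53RK, a kinase gene, showed the same split at ranks 754, 352 and 745. Of the 1935 coding genes with MYC, 9.04% had that split with the full lists, and 7 genes had it when each MYC list was cut to its 201 best summits. MDM4 and TP53RK were not among these 7. Ranks 263 and 258 of MDM4 and every rank of TP53RK lie beyond the 201 best. The MYC lists of SLK-KO were the longer ones in every case.

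Of 27 p53 target genes, 23 had POL2 in at least 1 library and 13 in all 6. The best were PMAIP1 (median percentile 0.810), which encodes the cell death protein NOXA, and GADD45A (1.08), a growth arrest gene. FAS, the death receptor gene, and BTG2, an antiproliferative gene, had POL2 in 3 SLK-KO and 0 WT libraries, 2 of the 23, beside the background of 2.87%. The median percentiles of FAS and BTG2, 42.0 and 38.2, lie beyond the 5047 best summits of the SLK-KO lists. These 2 splits are therefore not present with equal lengths. The median percentile of the list was 21.7, against 35.5 for all coding genes with POL2 and 27.0 for the 8 genes. MYC was found at 4 of the 27, each in SLK-KO libraries only and in at most 2 of them.

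Of 22 RB pathway and CDK inhibitor genes, 16 had POL2 and 5 had it in all 6 libraries, led by CCND1, the cyclin D1 gene (median percentile 1.50), and CDKN2C, the gene of the p18INK4c inhibitor (5.08). E2F4, a repressor E2F, had POL2 in 3 SLK-KO and 0 WT libraries, 1 of the 16, beside the background of 2.87%. Its median percentile of 47.8 lies beyond the 5047 best summits of the SLK-KO lists, so this split is not present with equal lengths. MYC was called at 8 of the 22, and CDK4, whose kinase the INK4 proteins inhibit, had MYC in 3 SLK-KO and 0 WT libraries at ranks 746, 1297 and 865. These ranks all lie beyond the 201 best summits, so the split is not present with equal lengths, and 9.04% of coding genes with MYC had it with the full lists. Of 18 NF2 and Hippo genes 16 had POL2 and 8 had it in all 6, led by SAV1 (1.15), a scaffold of the Hippo kinases, and AMOTL2 (1.76), an angiomotin. MYC was called at 2 of them. Of 17 RAS GTPase-activating and NF1 partner genes 14 had POL2 and 7 had it in all 6, led by RRAS (3.96) and RASA1 (5.67), a RAS GTPase-activating protein gene like NF1, with MYC at 2. Of 11 genes of the MYC repression network 10 had POL2 and 2 had it in all 6, SP3 (9.68) and MXD1 (25.5), and MYC was called at 4.

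**Figure D5:**
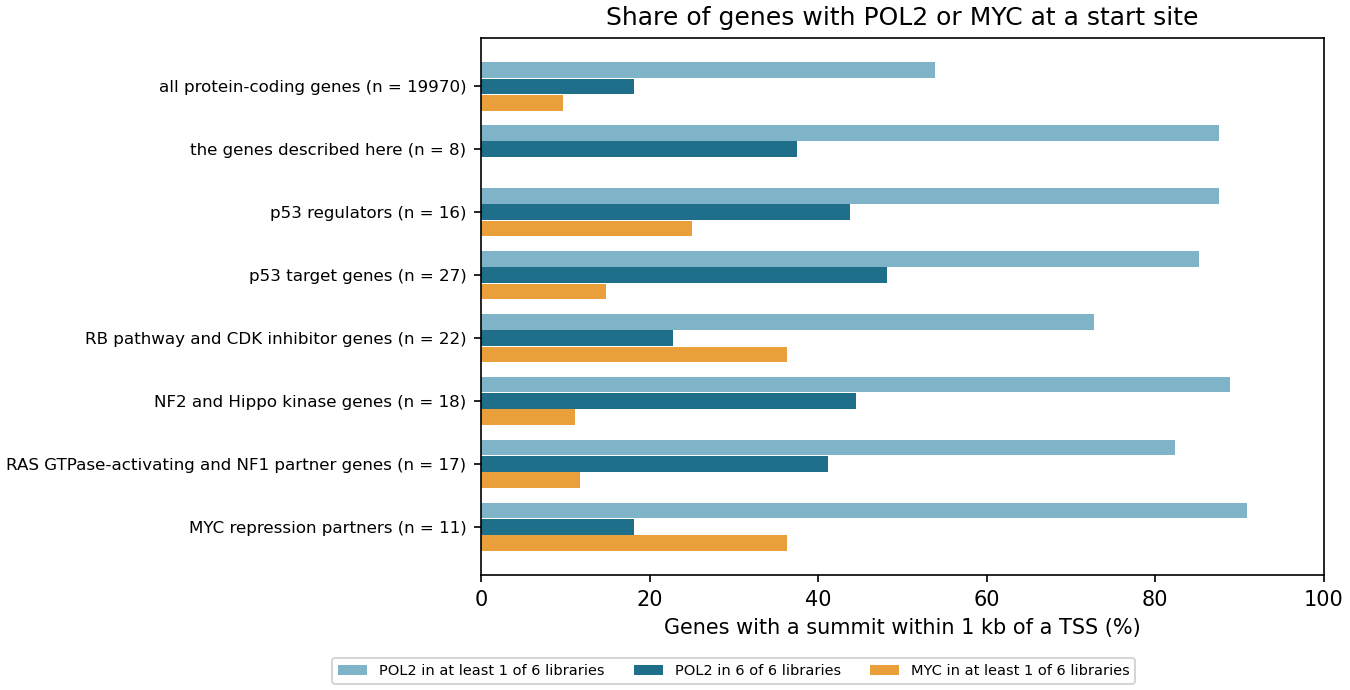
Percent of the genes of each list (x axis) with a start-site summit (1 kb) of POL2 in 1 or more or in all 6 libraries, and of MYC in 1 or more, beside all protein-coding genes. The 8 genes have POL2 in 87.5% and 37.5% and MYC in 0%, against 53.9%, 18.1% and 9.69% of all coding genes.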

How the data were processed

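ChIP-seq reads of 50 bp were processed with nf-core/chipseq 2.1.0 on GRCh38.p14, per the labels, and BWA 0.7.18 and MACS3 3.0.1 are named in the submitters' processing notes. The 12 deposited lists give 1 bp summits per library, and the authors' score is taken to be the peak caller's q-value as −log10, since every list starts just above the value for q = 0.05. The peak caller's control and options are not given in the sources used here. The 6 IgG and 2 Input samples were not analysed here. Summits were assigned to GENCODE release 44 with python 3.11.15 and numpy 2.4.6. Tied scores shared the better rank. Sites chained summits up to 250 bp apart. The genotypes were compared over libraries by exact two-sided permutation (20 relabellings) with Benjamini-Hochberg adjustment over all coding genes that entered. In simulated POL2 presence and rank values of 19970 genes, 200 of 200 genes seeded in SLK-KO only and 200 of 200 seeded with better SLK-KO ranks were called. The seeded values met the call rules by construction. Their recovery shows only that the rules were applied as stated, and does not measure power or false calls. No 2 lists shared an identical row. Same-numbered libraries did not deviate together, with correlations from -0.0193 to 0.0525, so no pairing was used. Named were the 8 genes, genes starting within 1 kb of them, genes at the nearest outside summits, the 2 most alike, and from each list genes split 3 to 0 and the 2 best ranked. Motifs were counted by script in hg38, with RefSeq promoters (GRCh38) as background. The genes and lists were chosen with earlier results of these data known. Some marker genes are not reported here.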

Additional observations from a re-analysis of the deposited data

How the results depend on the processing

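The alternatives were windows of 250 bp and 2.5 kb, canonical starts only, score minimums of 5 and 10, lists of equal length, each library left out, and a replicate block. Of 182 tests of the 8 genes under them, 125 kept the sign, 43 stayed at 0, 9 moved off 0, 4 fell to 0 and 1 reversed, and none had a p that could pass 0.05. The start-site differences of CDKN1A, CDKN1B and MDM2 were 0 without WT replicate 2, and that of CDKN2A was 0 with equal lengths. The 9 that moved off 0 were those of NF2 and RB1, with NF2 at -0.667 of the libraries at the start and -1 body summit with equal lengths. The reversal was that of the NF2 POL2 percentile difference, which ran over left-out libraries from -27.0 (WT replicate 1 left out) to 9.29 (WT replicate 2 left out). With the replicate block, sign flips over same-numbered libraries gave the CDKN1A body difference of 1 a p of 0.25 (exact, 8 flips, none smaller possible), and the block changed no call. The POL2 difference of 1.67 genes ranged from 0.5 to 2.5 over left-out libraries, and from 1 (canonical starts) to 3 (score of at least 10). The MYC difference of 0 was 0.33 at 2.5 kb, through the intronic CDKN1A summit, and 0 without each library. Counts over all genes moved more. With equal lengths, POL2 gave 200 genes in SLK-KO only (309 with full lists), 91 in WT only (2), 407 ranked better in SLK-KO (875), 398 better in WT (24) and 26 with more body summits in SLK-KO (365), and MYC gave 7 in SLK-KO only (175). A score of at least 10 gave 339 and 3 genes for the ranks, 101 for the body summits and 44 for MYC, and one of at least 5 gave 14 ranked better in WT, 236 for body summits and 98 for MYC. POL2 in WT only was 15 at 250 bp and 4 with canonical starts. Over left-out libraries POL2 in SLK-KO only ran from 311 to 1663 (1663 without WT replicate 1), in WT only from 3 to 28, ranks better in SLK-KO from 955 to 2232, ranks better in WT from 24 to 451 (451 without WT replicate 2), body summits from 374 to 891, and MYC in SLK-KO only from 196 to 358. Leaving a library out relaxes the call rules, so the left-out counts cannot fall below those of all libraries. Any rise in them is built into the rules, and only its size varies. The cause of the changes in count was not tested. List length limits these data: a gene missing from a short list was not called at that threshold and is not shown to lack POL2.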
